A study of Mus musculus with 12 samples.

Results

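Mitochondrial ribosomal proteins were examined at the RNA level in mouse myocardium, the muscle of the heart. The members were all genes whose symbol in the deposited table is Mrpl or Mrps followed by a number and at most 1 letter. This rule found 78 of 33641 gene symbols, 49 named for the large subunit (Mrpl) and 29 for the small subunit (Mrps), and all 78 were among the 13158 genes whose levels were tested. Mitochondria carry their own ribosome, which translates only the proteins encoded by mitochondrial DNA, all of them parts of the respiratory chain and the ATP synthase. Its RNA comes from mitochondrial DNA, whereas its proteins are encoded in the nucleus, made in the cytosol and imported. Some of them are kin to bacterial ribosomal proteins and others are additions found only in mitochondria, and inherited loss of single members causes cardiomyopathy or other failure of energy-demanding tissues.

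The 12 libraries came from male C57BL/6 wild-type mice, 3 in each of 4 groups: sham surgery or myocardial infarction (MI), each followed by vehicle or prednisone. Prednisone, a synthetic glucocorticoid, was injected into the peritoneum at 1 mg/kg, in saline from a stock in dimethyl sulfoxide, once a week for 6 weeks. Injections were given at lights-on to mice of about 10 weeks of age, beginning 2 weeks after either operation. Hearts were collected 24 hours after the final dose, at an age labelled as about 16 weeks. All 4 groups were wild type, and vehicle was given weekly for the same time. Which region of the infarcted heart was taken is not given in the sources used here.

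Levels are given in TPM, a transcript's share of a library after division by its length, scaled to 1000000. The number of reads behind a value is therefore unknown, and its precision rests on the spread between 3 mice. Mitochondrially encoded transcripts took between 21.6% and 42.0% of a library's TPM. MI vehicle replicate 3 stood apart with 14307 genes at 1 TPM or more, against 11690 to 12772 in the other 11 libraries. All 7 cardiomyocyte markers examined were present in every library, and their summed level was 22568 to 28246 TPM in MI vehicle and 31850 to 37823 TPM in the other groups. The sum of 6 fibroblast markers was 704 to 870 TPM in MI vehicle and 247 to 425 TPM elsewhere, and that of 6 macrophage markers 596 to 1322 TPM against 266 to 542 TPM. None of these markers was at 0 in any library. In such bulk tissue, fewer cells of a type and less RNA per cell cannot be told apart, and whether the change in cell markers bears on the ribosomal protein levels was not tested.

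The 78 genes were spread over 17 chromosomes, with at most 11 on any of them. RefSeq promoter windows (GRCm38.p6), 250 bases before to 50 bases after a start, were on hand for 69 members in 75 windows. Their median GC content was 58.7%, against 52.7% over all 32851 windows. The motif CCGGAAGT of ETS factors such as GABP stood on either strand in 16.0% of member windows and 3.89% of all windows. AAGATGGC, of the factor YY1, stood in 16.0% and 2.75%, and GCGCATGC, the core of the NRF1 motif, in 10.7% and 2.71%. None of these 3 motifs contains another, and in no member window did matches of different motifs overlap. TCAAGGTCA, of the ERR receptors, stood in 0 of the 75 member windows and 0.423% of all windows. At least 1 of the 4 motifs was in 38.7% of member windows and 9.25% of all. The windows of all genes include those of genes not tested here, whereas all members were tested. A match of letters is a description and not evidence of a bound factor. The stretches below, 5′ to 3′ on the gene's strand, belong to members described in the results and hold 1 motif each, with the matching bases of either strand in capitals.
Mrpl51: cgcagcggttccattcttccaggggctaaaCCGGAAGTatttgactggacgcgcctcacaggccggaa
Mrps22: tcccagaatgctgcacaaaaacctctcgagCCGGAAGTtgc
Mrpl42: cagattgaagcAAGATGGCgagcgcgcggt
Mrps11: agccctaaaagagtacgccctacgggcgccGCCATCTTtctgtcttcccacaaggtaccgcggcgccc
Mrps12: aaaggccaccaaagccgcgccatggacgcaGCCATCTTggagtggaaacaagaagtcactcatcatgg
Mrpl39: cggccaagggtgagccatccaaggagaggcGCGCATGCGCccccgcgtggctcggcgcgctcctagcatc
Mrps18b: aacggcccgacGCATGCGCactgggagcac
The first pair carries the ETS motif, at chr6:125192080-125192147 on the plus strand and chr9:98601680-98601720 on the minus strand. Mrpl51 and Mrps22 were called in opposite directions with prednisone in infarcted hearts. Mrpl42 (chr10:95501904-95501933, minus strand), Mrps11 (chr7:78782994-78783061, plus) and Mrps12 (chr7:28741983-28742050, minus) carry the YY1 motif. Mrpl39 (chr16:84735330-84735399) and Mrps18b (chr17:35916645-35916674), both on the minus strand, carry the NRF1 core, which in Mrpl39 matches on both strands. By GENCODE M21 coordinates, 15 members (19.2%) had a neighbouring gene on the opposite strand that starts head to head within 1000 bases, against 7.89% of all tested genes with coordinates. Mrpl51 shares such a start region with Ncapd2 at 100 bases, Mrpl30 with Mitd1 at 66 bases, and Mrps12 with Sars2, the mitochondrial seryl-tRNA synthetase, at 172 bases. The GENCODE starts can differ from the RefSeq starts of the windows, and the stretch printed for Mrpl51 lies downstream of its GENCODE start.

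Mean levels over the 12 libraries ran from 7.55 to 386 TPM, with a median of 44.1 TPM. Mrpl42, a large-subunit protein, was the most abundant transcript set, followed by Mrps21 (213 TPM), Mrpl30 (213 TPM), Mrps23 (159 TPM) and Mrpl33 (153 TPM). The place of Mrps23 is uncertain, because the table lists its transcripts in pairs of equal values. With each pair counted once its mean was 79.9 TPM, which placed it at rank 16. Though most of these proteins occur once in a ribosome, their transcripts were far from equal, and 8 members at 100 TPM or more held 32.5% of the family's TPM (7 members and 29.5% with the Mrps23 pairs counted once). The lowest were Mrpl23, Mrpl57 (10.2 TPM), Mrpl1 (11.1 TPM), Mrpl11 (13.8 TPM) and Mrpl19 (14.05 TPM). Mrpl23 is uncertain, because the processed pseudogene Mrpl23-ps1 shares 92.7% of its 31-base words with Mrpl23 and was itself listed at 68.3 to 117 TPM. The order of the members was nearly the same in every group (Spearman's rho between group means 0.981 to 0.997 over 78 genes, as a description). The median coefficient of variation of a member between mice was 5.72% in sham vehicle, 7.67% in sham prednisone, 10.1% in MI vehicle and 10.6% in MI prednisone.

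The summed level of the 78 members was highest in infarcted hearts of prednisone-treated mice. It was 4168, 4486 and 4371 TPM in sham vehicle, 4283, 4464 and 4936 TPM in sham prednisone, 4116, 4431 and 4761 TPM in MI vehicle, and 5013, 5594 and 4748 TPM in MI prednisone. The group means were 4342 ± 161, 4561 ± 337, 4436 ± 322 and 5118 ± 433 TPM (SD, n = 3 each), and MI prednisone overlapped with both sham prednisone and MI vehicle. The total depends on what shares the library with it. With mitochondrially encoded rows, their nuclear copies and globin rows removed and the rest rescaled to 1000000, the sums were 9144, 9174 and 7783 TPM in MI vehicle and 10464, 10490.1 and 10792 TPM in MI prednisone. On that scale every MI vehicle library lay below, and every MI prednisone library above, the 9812 to 10313 TPM of the sham libraries. The ratio of summed large-subunit to summed small-subunit TPM overlapped between the groups, at 1.82 to 1.92 over the 12 libraries.

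**Figure D1:**
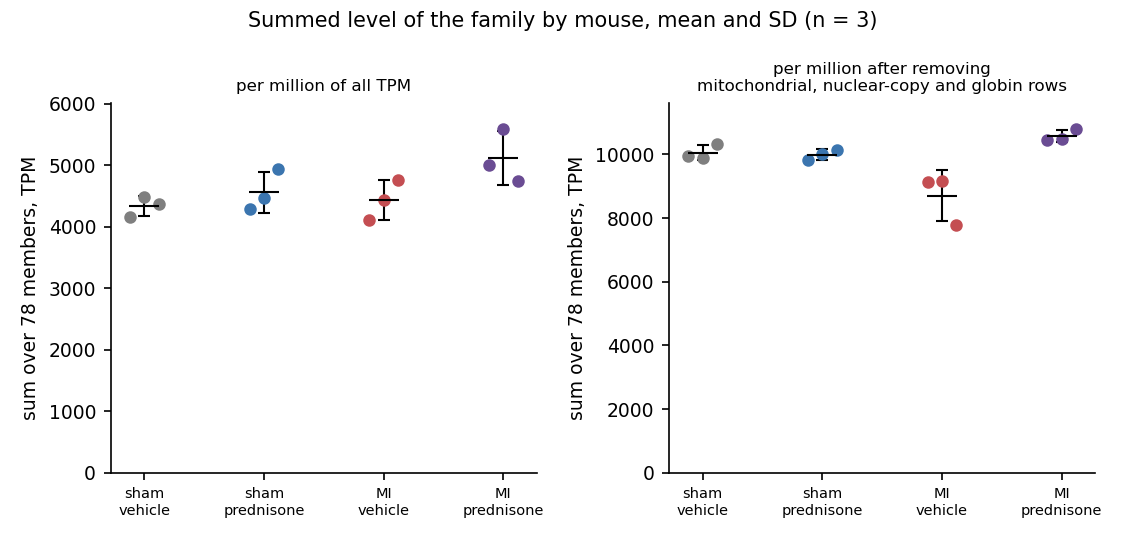
Summed TPM of the 78 mitochondrial ribosomal protein genes in each of 4 groups, as deposited (left) and after removal of globin and mitochondrial rows with their nuclear copies (right). Points are mice, the horizontal mark and bar are mean and SD (n = 3), and both axes start at 0. On the right the MI vehicle mice lie lowest (7783 to 9174 TPM) and the MI prednisone mice highest (10464 to 10792 TPM).

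With vehicle, infarction gave no called change in the family, and nearly all members lay below the typical gene. None of the 78 members was called in MI against sham under vehicle (limma on log2(TPM + 1), adjusted p under 0.05). Of all genes tested, 16.0% were called. An unadjusted p under 0.05 was found for 7 members (8.97%), against 42.2% of all genes. The median gene was higher by 0.39 on the log2 scale, and 77 of 78 members lay below it. The median member was at 0.10 as deposited and at -0.35 after median-ratio rescaling, which sets the typical gene near no change. On the rescaled values all 78 members were lower in MI and 14 were called lower (3.22% of all genes). A correction for transcript length, possible for 68 members, gave a median of -0.32 with 5 called lower (2.67% of all genes). Without MI vehicle replicate 3, whose all-gene median was the highest, the members' median was -0.0015 and that of all genes 0.19, still with 0 members called. Without MI vehicle replicate 1, 7 members were called higher and 1 lower, while 41.2% of all genes were called higher and 1.59% lower.

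Mrps35 and Mrpl42 had the most negative differences between MI and sham under vehicle. Mrps35, a small-subunit protein with no bacterial counterpart, was at 69.1, 61.6 and 74.99 TPM in MI vehicle and 92.7, 91.2 and 81.7 TPM in sham vehicle. Mrpl42 was at 336, 340.0 and 289 TPM in MI vehicle and 396, 393 and 394 TPM in sham vehicle. For both genes the groups did not overlap, yet neither difference passed the test, at -0.37 (limma adjusted p = 0.0731) and -0.30 (adjusted p = 0.0514) on the log2 scale. After median-ratio rescaling they were -0.82 (adjusted p = 0.0233) and -0.75 (adjusted p = 0.0489). At the other end was Mrpl20, kin to bacterial L20, at 0.43 (adjusted p = 0.0776). Mrpl20 was picked after their values were seen.

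**Figure D2:**
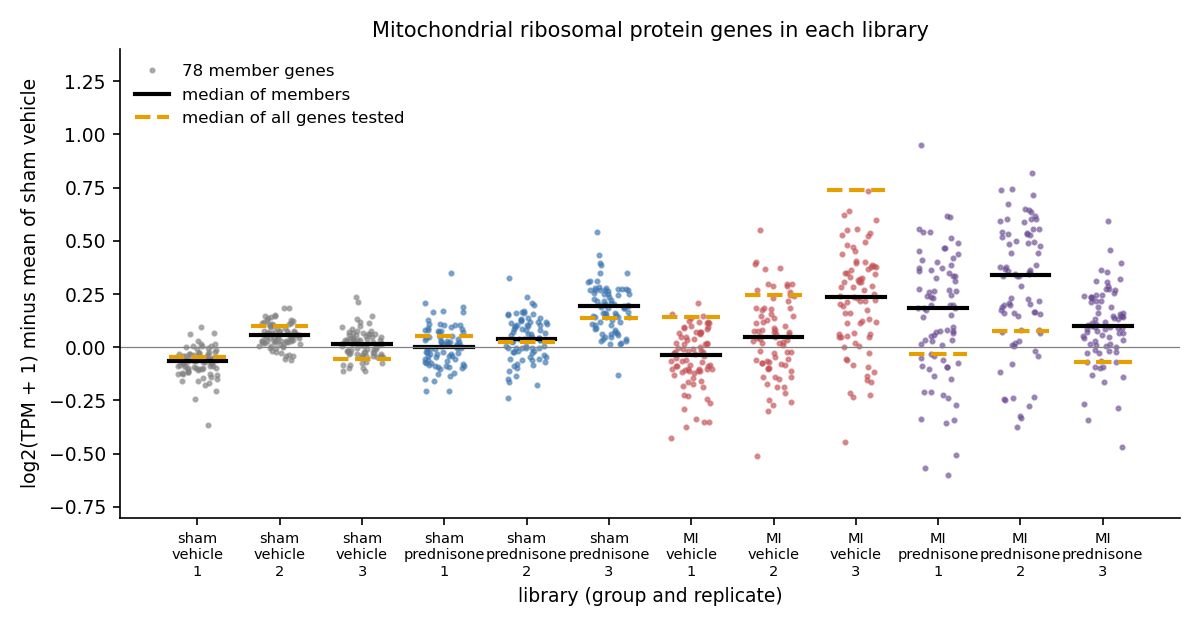
Log2(TPM + 1) of the 78 members in each library minus the mean of sham vehicle (points), with the median of the members (black line) and the median of all 13158 genes tested (dashed orange line). In MI vehicle the members' median lies below that of all genes by 0.18 to 0.50, and in MI prednisone above it by 0.17 to 0.26.

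Prednisone in infarcted hearts gave the largest number of calls in the family among the 5 comparisons. Of the 78 members, 17 were called higher in MI prednisone than in MI vehicle (limma adjusted p under 0.05) and 2 lower. Among all genes tested, 2.50% were called higher and 34.9% lower. The median member was higher by 0.12 and the median gene lower by 0.41 on the log2 scale, and 76 of 78 members lay above the median gene. After median-ratio rescaling the members' median was 0.58, with 62 called higher and 0 lower, against 14.3% of all genes called higher and 13.8% lower. In each library on its own, the members' median minus the all-gene median was -0.179, -0.197 and -0.503 in MI vehicle and 0.217, 0.264 and 0.166 in MI prednisone, and between -0.05 and 0.07 in the sham libraries. The groups did not overlap for 19 members that were higher and 4 that were lower, beside 3.59% and 42.6% of all genes. The comparison shares the MI vehicle mice with the infarct comparison above, so the values of both rest in part on the same libraries. Sums of fibroblast and macrophage markers were lower in every MI prednisone library than in any MI vehicle library, as given above. The cardiomyocyte sum was higher, but of its 7 markers 4 were above 0 and 3 below, with 3 called higher (Myl2, Tnni3 and Tnnt2) and 0 lower. The 4 atrial markers summed to 4335 to 6173 TPM in MI prednisone and 2802 to 4106 TPM in MI vehicle. Of these 4, 3 were called higher with prednisone in MI (Myl4, Myl7 and Sln) and 0 lower. Their median change over the 4 was 2.01 on the log2 scale. In MI against sham under vehicle, 3 of the 4 were below 0, with a median of -0.78, while Nppa was called higher. Mitochondrially encoded transcripts took 24.6, 21.6 and 35.9% of the TPM in the MI prednisone libraries and 35.2, 36.7 and 23.1% in the MI vehicle libraries. The part of these in the result was not tested.

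Mrps35 showed the largest rise. It stood at 69.1, 61.6 and 74.99 TPM in MI vehicle and 101, 114 and 97.6 TPM in MI prednisone, beside 92.7, 91.2 and 81.7 TPM in sham vehicle and 83.2, 83.0 and 113 TPM in sham prednisone. Every MI vehicle mouse was below every other mouse of the study for this gene. The change was 0.59 on the log2 scale (SE 0.13, limma adjusted p = 0.00678). The gene lies at chr6:147042764-147073991 on the plus strand (GRCm38, as are all gene coordinates here).

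Mrps21, kin to the bacterial small-subunit protein S21, was at 187, 178 and 189 TPM in MI vehicle and 251, 292 and 241 TPM in MI prednisone. The sham vehicle mice were at 188, 212 and 203 TPM and the sham prednisone mice at 182, 213 and 221 TPM. All 3 MI prednisone mice were above the other 9. Its change was 0.50 (SE 0.11, adjusted p = 0.00525, chr3:95862634-95871519, minus strand).

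Mrpl30, kin to bacterial L30, was at 172, 203 and 197 TPM in MI vehicle and 248, 296 and 239 TPM in MI prednisone. Sham values were 192, 199.8 and 197 TPM with vehicle and 192, 202 and 219.8 TPM with prednisone. Here too the MI prednisone mice were the 3 highest of 12. The change was 0.45 (SE 0.11, adjusted p = 0.00819, chr1:37890477-37898535, plus strand).

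Mrpl51, a large-subunit protein, was at 117, 127 and 115 TPM in MI vehicle and 164, 189 and 138 TPM in MI prednisone. Mrps33, of the small subunit, was at 67.0, 76.7 and 74.5 and 91.1, 111 and 92.3 TPM. Neither gene overlapped between these groups. Mrpl51 rose by 0.44 (SE 0.11, adjusted p = 0.0124, chr6:125191801-125196269, plus strand) and Mrps33 by 0.42 (SE 0.10, adjusted p = 0.00889, chr6:39801804-39810988, minus strand).

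Mrpl42, the most abundant member, went from 336, 340.0 and 289 TPM to 402, 439.8 and 419 TPM, a rise of 0.39 (SE 0.09, adjusted p = 0.00893). Its MI prednisone values overlapped with the 384, 393 and 441 TPM of sham prednisone. The other members called higher were Mrps25, Mrpl55, Mrps15, Mrpl14, Mrps36, Mrpl12, Mrpl28, Mrpl41, Mrps11, Mrpl11 and Mrpl53, with changes between 0.27 and 0.42 and adjusted p between 0.0122 and 0.0485. Mrps36 is now known as a subunit of the 2-oxoglutarate dehydrogenase complex, and rose by 0.38. Leaving out 1 library at a time, 7 of the 17 stayed called in all 12 fits, namely Mrps35, Mrps21, Mrpl30, Mrpl51, Mrps33, Mrpl42 and Mrpl55. The number of members called was 10 without MI prednisone replicate 1, 9 without replicate 2 and 11 without MI vehicle replicate 2, and between 13 and 24 without any other library. Among all genes, 1.23% to 3.63% were called higher and 23.1% to 45.6% lower in these 12 fits. With only the 6 MI libraries in the fit, 0 members passed adjustment in limma and 15 had an unadjusted p under 0.05. Of all genes in that fit, 0.236% were called higher and 5.91% lower, and 33.9% had an unadjusted p under 0.05.

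Both falling members belong to the small subunit and are additions found only in mitochondria. Mrps22, whose loss is a known cause of infantile cardiomyopathy, was at 14.4, 16.9 and 20.04 TPM in MI vehicle and 10.6, 13.0 and 12.7 TPM in MI prednisone, beside 15.0, 16.4 and 15.2 and 14.6, 17.1 and 15.9 TPM in the sham groups. All 3 MI prednisone mice were below the other 9. It fell by 0.46 on the log2 scale (SE 0.13, adjusted p = 0.0212, chr9:98588730-98601660, minus strand), a call lost without MI prednisone replicate 1. Its fall was close to that of the median gene: after median-ratio rescaling the difference was -0.02 (adjusted p = 0.887).

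Mrps23 was at 163, 198 and 191 TPM in MI vehicle and 121, 121 and 165 TPM in MI prednisone, with sham values of 138, 156 and 165 and 143, 164 and 184 TPM. MI prednisone replicate 3 lay within the MI vehicle range. The fall of 0.45 (SE 0.15, adjusted p = 0.0336) was not called without either of MI prednisone replicates 1 and 2 or of MI vehicle replicates 2 and 3. After median-ratio rescaling it was 0.01 (adjusted p = 0.968).

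**Figure D3:**
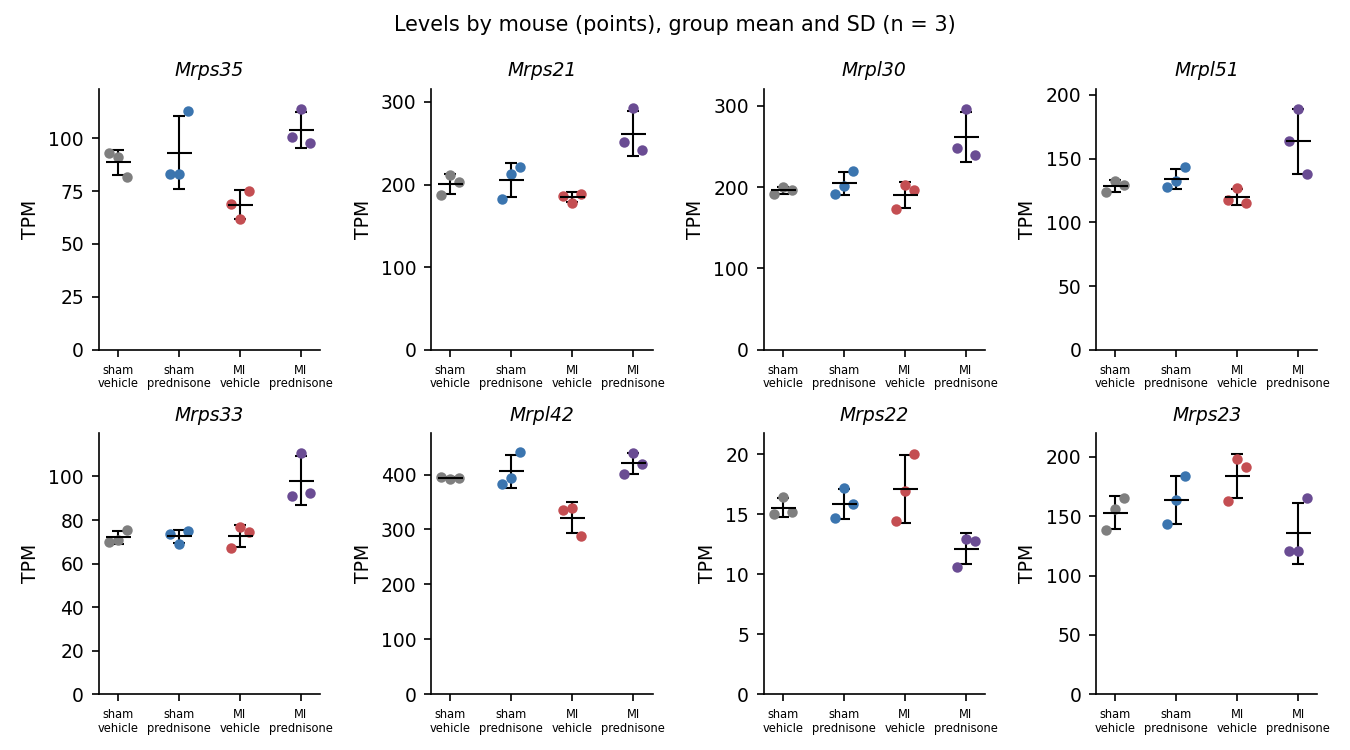
TPM of 8 members by mouse (points) with group mean and SD (n = 3), each axis from 0. The MI prednisone mice are the highest group for Mrps21, Mrpl30 and Mrps33 without overlap, the MI vehicle mice are the lowest for Mrps35 and Mrpl42, and the MI prednisone mice are the lowest for Mrps22.

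The members have short transcripts, and in the whole transcriptome the change with prednisone in MI was lower for longer transcripts. The TPM-weighted mean length was 938 bases for the median member and 2237 bases for the median gene tested, with a length on hand for 68 members (87.2%). In MI prednisone against MI vehicle, the change and length had a Spearman's rho of -0.54 over the 68 members and -0.38 over 11894 genes, given as a description of points that share libraries. The 12 members under 700 bases had a median of 0.34 and 7 were called higher, whereas all genes of that length had a median of -0.10 and 9.89% were called higher. Between 700 and 900 bases the medians were 0.17 for 20 members and 0.01 for all genes, and between 900 and 1300 bases 0.17 for 17 members and -0.15. The 19 members of 1300 bases or more had a median of -0.10, against -0.47. The members' median was above that of all genes in all 4 ranges.

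Subtracting a curve of change against length from each library left the members' median at 0.35 and that of all genes at 0.03. On these values 19 of 68 members were called higher and 0 lower, against 8.75% of all genes called higher and 7.69% lower. Mrps35 kept its call at 0.71 (adjusted p = 0.00765), as did Mrps21 at 0.74 (adjusted p = 0.0475) and Mrpl12 at 0.62 (adjusted p = 0.0129). Mrpl42 did not, at 0.52 (adjusted p = 0.127), nor did Mrps22, at -0.24 (adjusted p = 0.198). The length trend was seen in each MI prednisone library, with a rho over all genes of -0.381, -0.396 and -0.254 against the sham vehicle mean, and between -0.12 and 0.24 in the other 9 libraries.

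**Figure D4:**
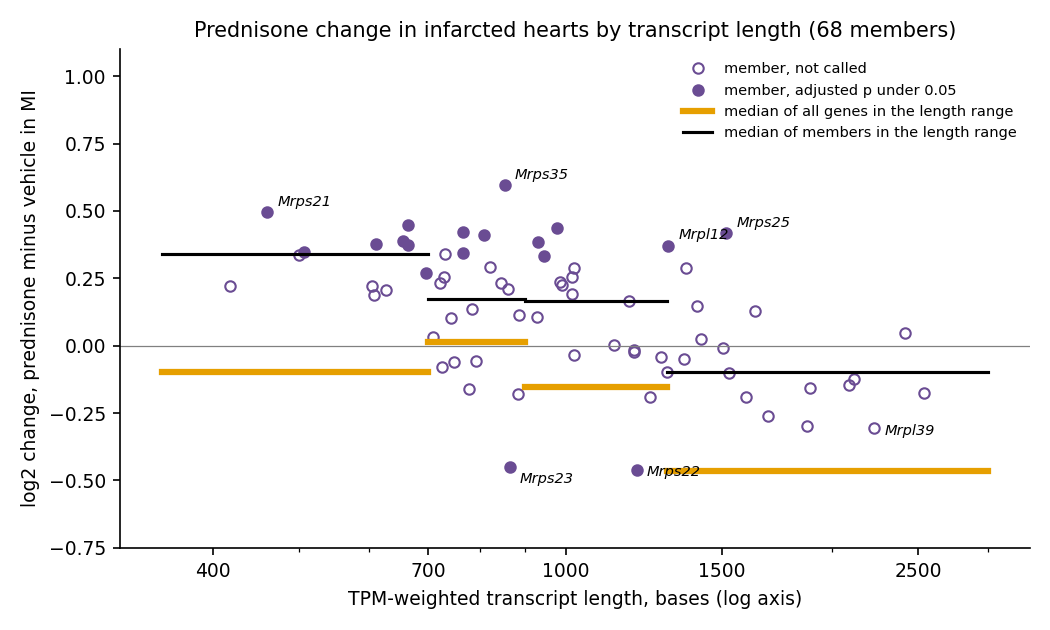
Log2 change in MI prednisone against MI vehicle (vertical axis) by TPM-weighted transcript length (horizontal log axis) for the 68 members with a length, filled where the adjusted p was under 0.05. Black lines are the medians of the members and orange lines those of all genes in the length ranges bounded at 700, 900 and 1300 bases, the members' line lying higher in each of the 4.

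In several members the change was called in 1 of several transcripts. Over all transcripts tested, 5.92% were called higher and 27.1% lower in MI prednisone than in MI vehicle, and of the members' 207 transcripts 20 were called higher and 11 lower. In Mrpl30 the call lay in a coding transcript of 587 bases (ENSMUST00000195373.1), at 39.7, 45.0 and 62.5 TPM in MI vehicle and 125, 154 and 97.2 TPM in MI prednisone, without overlap. It changed by 1.34 (SE 0.20, limma adjusted p over transcripts = 0.000882). The other 3 coding transcripts of Mrpl30 had changes between -0.20 and 0.03, none of them called.

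In Mrps35 the call lay in a transcript of 467 bases (ENSMUST00000123139.1) that the annotation lists as processed, with no coding sequence. It was at 41.0, 33.7 and 44.2 TPM in MI vehicle and 77.3, 81.9 and 53.1 TPM in MI prednisone, a change of 0.80 (SE 0.18, adjusted p = 0.00742). The coding transcript of 4162 bases was at 9.53, 7.79 and 8.58 TPM and 8.54, 10.3 and 9.23 TPM, and its change of 0.11 was not called (adjusted p = 0.531). The 467-base transcript held 62.3% of the gene's TPM over the 12 libraries. In Mrps25 likewise a 565-base transcript listed as a retained intron (ENSMUST00000014695.8) changed by 0.52 (adjusted p = 0.0357), whereas the coding one of 6073 bases was at -0.06 (adjusted p = 0.766).

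For Mrps21 the shorter of the pair of main coding transcripts, of 405 bases (ENSMUST00000072587.4), went from 35.2, 51.0 and 53.1 TPM to 73.4, 102 and 129 TPM, a change of 1.09 (adjusted p = 0.0222). The 488-base transcript, with the larger share of the gene, was at 0.22 (adjusted p = 0.390) with overlapping groups, and a minor one of 244 bases was called lower at -1.80 (adjusted p = 0.0287). In Mrps23 the call lay in a 332-base transcript (ENSMUST00000107915.9) at 28.4, 31.5 and 30.1 TPM in MI vehicle and listed at 0, 0 and 18.05 TPM in MI prednisone. Its main transcript, of 1332 bases, was at 31.6, 39.5 and 31.8 TPM and 40.8, 37.9 and 38.5 TPM, with a change of 0.19 (adjusted p = 0.218) in the opposite direction. Each of these Mrps23 transcripts appears in the table a second time, under another identifier and with equal values, and both enter the gene's sum. The most abundant transcript of Mrps11 likewise had the opposite sign to the gene, at -0.21 (adjusted p = 0.429), while its transcript marked for nonsense-mediated decay changed by 1.00 (adjusted p = 0.00236). In 11 of the 78 members the most abundant transcript was not listed as coding. The share of the family's TPM in coding transcripts was between 73.5% and 75.01% in all 12 libraries. A further 10.3% to 12.1% lay in transcripts absent from GENCODE M21, whose type was not known. Dividing reads among overlapping transcripts of a gene is an estimate, and these values carry its error.

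**Figure D5:**
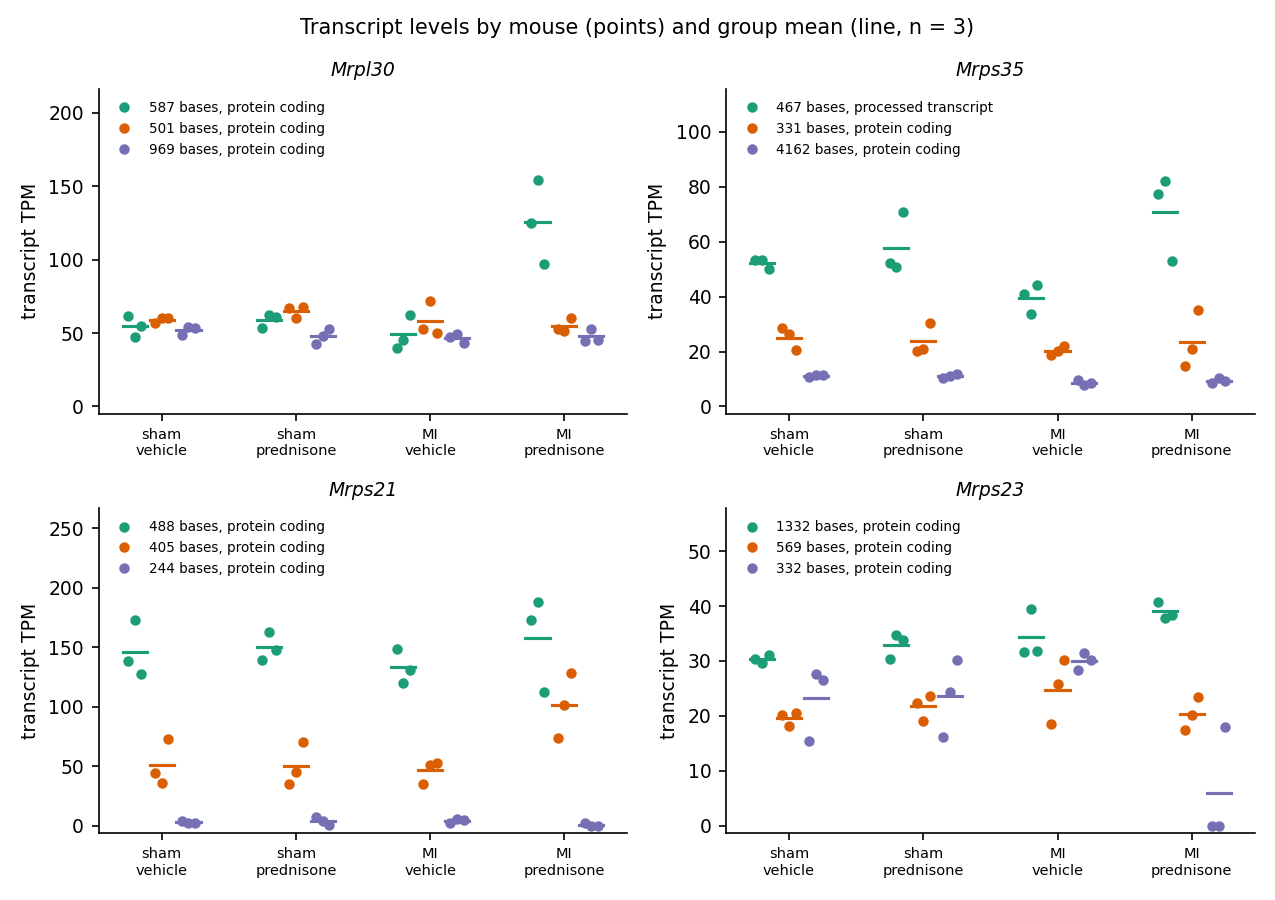
TPM of the 3 most abundant annotated transcripts of Mrpl30, Mrps35, Mrps21 and Mrps23 by mouse (points) with group means (lines, n = 3), labelled by length and annotated type. In MI prednisone the 587-base transcript of Mrpl30, the 467-base transcript of Mrps35 and the 405-base transcript of Mrps21 lie above every other mouse in 3, 2 and 3 of 3 mice, and the 332-base transcript of Mrps23 is listed at 0 in 2 of 3 mice.

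Under prednisone, infarcted hearts differed from sham hearts in 9 members. In this comparison 7 were called higher (2.73% of all genes) and 2 lower (14.1% of all genes). As deposited, the median member was at 0.13 and the median gene at -0.06, and 60 members lay above the median gene. After the length correction the median member was at -0.07 and the median gene at 0.0026, with 24 of 68 members above 0. After median-ratio rescaling 18 members were called higher (10.8% of all genes) and 1 lower (14.6% of all genes). After the length correction, 1 of 68 was called higher and 2 lower, beside 12.9% of all genes called in either direction. Only Mrps25, not called before, was called higher on that scale (0.33, adjusted p = 0.0363). The MI prednisone mice are shared with the comparison of treatments in MI, and Mrpl30, Mrpl53, Mrps21 and Mrps33 were called higher in both.

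Mrps6, kin to bacterial S6, had the largest rise, from 29.1, 30.9 and 32.7 TPM in sham prednisone to 45.6, 47.7 and 39.2 TPM in MI prednisone. In MI vehicle it was at 34.3, 33.5 and 45.2 TPM, also above its 28.5, 31.1 and 29.1 TPM in sham vehicle without overlap. The change under prednisone was 0.50 (SE 0.13, limma adjusted p = 0.0222, chr16:92058270-92112227, plus strand), and that under vehicle 0.33 (adjusted p = 0.0841). Mrps18b, 1 of 3 paralogs of bacterial S18 in the genome, went from 21.3, 21.4 and 27.3 TPM to 31.3, 38.0 and 29.1 TPM, a change of 0.47 (SE 0.13, adjusted p = 0.0345). Mrps33 changed by 0.42 (adjusted p = 0.0162), Mrpl53 by 0.38 (adjusted p = 0.0158) and Mrps12 by 0.36 (adjusted p = 0.0455). Mrps12 is the counterpart of bacterial S12, which guards the accuracy of decoding, and stood at 42.0, 43.3 and 48.7 TPM in sham prednisone and 58.4, 64.3 and 50.4 TPM in MI prednisone.

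Mrpl39, an addition to the large subunit, fell from 24.4, 24.6 and 28.6 TPM to 16.5, 19.7 and 17.7 TPM, by 0.50 (SE 0.11, adjusted p = 0.0128, chr16:84717576-84735742, minus strand). Mrpl1, kin to the protein of the bacterial L1 stalk that helps release spent tRNA, fell from 12.6, 12.8 and 13.2 TPM to 9.35, 9.15 and 10.2 TPM, by 0.40 (SE 0.11, adjusted p = 0.0356). For both, no MI prednisone mouse overlapped with a sham prednisone mouse. The fall of Mrpl39 held after median-ratio rescaling (adjusted p = 0.0409) and after the length correction (adjusted p = 0.0451), and that of Mrpl1 was not called in either (adjusted p = 0.0690 and 0.0950). None of the 9 calls was kept in all 12 fits that left out 1 library. The number of members called was 1 without MI prednisone replicate 1 or 2 or sham prednisone replicate 1 or 2. It was 4 without sham prednisone replicate 3 or any of the sham vehicle libraries, 6 and 11 without MI vehicle replicates 2 and 1, 16 without MI vehicle replicate 3, and 21 without MI prednisone replicate 3. Among all genes, 0.661% to 7.27% were called higher and 7.04% to 22.9% lower in these 12 fits.

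In sham hearts no change of a member with prednisone was called by limma (0 of 78, beside 0.114% of all genes). An unadjusted p under 0.05 was found for 0 members, beside 3.56% of all genes. Differences ran from -0.13 to 0.25 on the log2 scale with a median of 0.07, which was also the all-gene median, and the members' median was -0.01 after median-ratio rescaling.

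The difference between the prednisone effect in MI and that in sham was tested as an interaction. Mrps21 alone was called, at 0.47 (SE 0.15, limma adjusted p = 0.0465), its effect being 0.50 in MI and 0.03 in sham. Among all genes, 0.540% were called higher and 20.7% lower in this term. The call was lost without any 1 of 9 libraries and kept without MI prednisone replicate 3 or MI vehicle replicates 1 or 3, with adjusted p between 0.0345 and 0.109. Mrps35 had a larger difference of 0.54 that was not called (adjusted p = 0.0630). Leaving out 1 library gave 3 members called higher and 2 lower without MI prednisone replicate 3, 1 higher and 2 lower without MI vehicle replicate 1, 2 higher without MI vehicle replicate 3, 1 higher without sham prednisone replicate 3 and 0 without any of the other 8. Among all genes, 0.144% to 1.16% were called higher and 8.30% to 33.7% lower in these 12 fits. The median member was at 0.05, turning to -0.03 without MI vehicle replicate 1, and the median gene was at -0.48. After median-ratio rescaling the members' median was 0.58 and 32 were called higher (4.29% of all genes). After the length correction it was 0.27, and 0 of 68 members were called, beside 0.891% of all genes higher and 1.15% lower. On these values 14 members (20.6%) had an unadjusted p under 0.05, near the 19.7% of all genes.

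With prednisone in MI, 2.50% of all genes were called higher and 34.9% lower. These shares stand beside each count that follows for subunits, roles and lists. For counts after median-ratio rescaling the shares are 14.3% higher and 13.8% lower. By subunit, 7 of 29 members with a small-subunit symbol were called higher and 2 lower with prednisone in MI, with a median of 0.19. Of 49 with a large-subunit symbol, 10 were called higher and 0 lower, with a median of 0.02. Mrps18a and Mrps30 sit in the large subunit despite their names. Neither was called, at 0.11 (adjusted p = 0.414) and -0.10 (adjusted p = 0.521). Of 44 members listed with a bacterial counterpart 8 were called higher and 0 lower, and of 33 others 8 higher and 2 lower. Of the S18 paralogs only Mrps18c was listed among the 44, and Mrps18a and Mrps18b were counted with the others. Mrpl55, which was called higher, was left out of both subsets. After median-ratio rescaling, 23 of 29 small-subunit and 39 of 49 large-subunit symbols were called higher and 0 lower, with medians of 0.64 and 0.47. Of the members with and without a bacterial counterpart, 34 of 44 and 27 of 33 were then called higher and 0 lower. No difference between these subsets was tested.

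The stalk of the large subunit, which recruits elongation factors, is built on Mrpl10, Mrpl11 and Mrpl12. Mrpl12 went from 110.0, 119 and 119.6 TPM in MI vehicle to 148, 169.7 and 136 TPM in MI prednisone, without overlap and with a change of 0.37 (SE 0.10, adjusted p = 0.0180). Besides its place in the stalk, MRPL12 binds the mitochondrial RNA polymerase. Mrpl11 went from 11.9, 12.4 and 14.1 TPM to 16.2, 18.1 and 14.5 TPM, with a change of 0.32 (SE 0.12, adjusted p = 0.0485) whose call was lost without any 1 of 10 libraries. Mrpl10 was at 30.6, 32.0 and 42.3 TPM and 27.2, 29.1 and 29.9 TPM, a difference of -0.26 that was not called (adjusted p = 0.123). Its groups did not overlap, and its sign was opposite to that of Mrpl11 and Mrpl12. After median-ratio rescaling Mrpl10 was at 0.19 (adjusted p = 0.167).

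Of 4 members known as cardiomyopathy genes, Mrps22 alone was called. Mrpl3 was at 60.2, 67.6 and 74.5 TPM in MI vehicle and 49.8, 54.3 and 74.7 TPM in MI prednisone, and Mrpl44, which has the fold of an RNase III, at 29.1, 30.99 and 34.1 and 30.8, 32.4 and 32.5 TPM. Mrps14 was at 36.2, 36.7 and 44.8 and 46.4, 49.1 and 40.9 TPM. All 3 overlapped between the groups, with differences of -0.19 (adjusted p = 0.298), 0.02 (adjusted p = 0.855) and 0.21 (adjusted p = 0.166). A pseudogene, Gm48789, shares 50% of its 31-base words with Mrps14 and was listed at a mean of 2.03 TPM.

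Among members with a further role, Mrpl41, also reported to act in cell death and the cell cycle, rose from 52.0, 46.4 and 52.6 TPM to 58.5, 71.8 and 62.5 TPM, by 0.34 (SE 0.11, adjusted p = 0.0329). Mrpl58, a release factor built into the large subunit that frees stalled ribosomes, was at 48.1, 52.6 and 75.5 TPM and 72.3, 77.3 and 58.5 TPM, with MI vehicle replicate 3 within the prednisone range (0.25, adjusted p = 0.212). Mrpl45, which ties the ribosome to the inner membrane near the exit tunnel, was at 19.9 ± 0.756 TPM and 20.6 ± 1.05 TPM (SD, n = 3, 0.05, adjusted p = 0.704). Mrps27, an RNA-binding protein with pentatricopeptide repeats, was at 25.5 ± 1.12 TPM and 22.0 ± 2.28 TPM, lower in each MI prednisone mouse than in any MI vehicle mouse but not called (-0.21, adjusted p = 0.121). Mrps34, needed for a stable small subunit, was at 0.11 (adjusted p = 0.491), and it shares exonic sequence with its neighbour Nme3, so its level is uncertain. The S18 paralogs Mrps18a, Mrps18b and Mrps18c were at 0.11, 0.25 and 0.21 with prednisone in MI, none called.

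Some proteins of the same ribosome carry other symbols. Of 5 tested, Dap3 and Aurkaip1 were called higher with prednisone in MI and none lower. Dap3, a GTP-binding small-subunit protein also tied to cell death, went from 54.3, 54.5 and 69.9 TPM to 81.7, 94.97 and 77.3 TPM (0.50, SE 0.13, adjusted p = 0.0119). Aurkaip1 went from 55.9, 65.9 and 73.5 TPM to 85.4, 92.1 and 72.5 TPM (0.35, SE 0.13, adjusted p = 0.0484). Both were also called higher in MI than in sham under prednisone.

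Further lists cover the factors that build and serve the ribosome. Of 26 assembly factors tested, 1 was called higher and 3 lower with prednisone in MI, and after median-ratio rescaling 15 higher and 0 lower. Fastkd2, which binds the large ribosomal RNA, rose by 0.66 (SE 0.18, adjusted p = 0.0147), and the GTPase Gtpbp10, the methyltransferase Mettl15 and the pseudouridine synthase Trub2 fell by 0.65, 0.59 and 0.77. Of 15 translation factors 0 were called higher and 6 lower, a share near that of all genes, the elongation factors Gfm1 and Gfm2, the initiation factor Mtif3, the insertase Oxa1l, Lrpprc and Taco1, but after median-ratio rescaling 2 were higher and 0 lower. Taco1, an activator of translation of the cytochrome oxidase subunit COX1, went from 30.5, 29.9 and 28.2 TPM to 13.5, 12.4 and 19.5 TPM, without overlap (-0.95, SE 0.15, adjusted p = 0.00146). Gfm1 went from 67.2, 67.2 and 67.9 TPM to 42.5, 42.4 and 57.4 TPM (-0.51, adjusted p = 0.00772). Of 20 genes listed for charging mitochondrial tRNA with amino acids, 0 were called higher and 3 lower (Iars2, Nars2 and Pars2). Of all genes, 34.9% were called lower. After rescaling 4 of the 20 were higher and 0 lower, against 14.3% and 13.8% of all genes. Of 6 transcription factors and polymerases of mitochondrial DNA, Tfb2m alone was called, lower by 0.57 (adjusted p = 0.0151), and after rescaling 2 were called higher and 0 lower. After the length correction, translation factors had 1 of 14 called higher and 0 lower, and assembly factors 9 of 25 higher and 0 lower. Of all genes on that scale, 8.75% were called higher and 7.69% lower.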

How the data were processed

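RNA from the myocardium of 12 mice had been sequenced as stranded mRNA libraries, per the labels' protocols. The authors' deposited table gives TPM per transcript. The submitters' processing notes name Trimmomatic, HISAT2, kallisto and mm10, without roles or versions. No counts were used, so the depth of each library is unknown. Transcripts were summed to genes by symbol. Genes at 1 TPM or more in at least 3 of 12 libraries were tested with limma 3.58.1 (R 4.3.3) on log2(TPM + 1), with a variance trend, a mean for each group of 3 and Benjamini-Hochberg adjustment over 13158 genes. A call is an adjusted p under 0.05. A fold change on this scale understates that of low genes. The limma step was tested on simulated data in which genes varied independently, without a shift or length trend shared by a library. That test therefore cannot speak to such shifts or trends here.

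Median-ratio rescaling divided each library by a size factor from genes above 0 in all libraries. The length correction subtracted a loess curve (span 0.5) of each library's deviations against log10 transcript length. Lengths came from GENCODE M21, which matched 94.7% of 105129 rows. Other alternatives were a pseudocount of 0.1, no filter, no trend, single transcripts, removed rows, a replicate block, fits of 2 groups and leaving out each library.

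The members and all gene lists were chosen with earlier results of these data known. Named members are a list by role, the 5 largest called changes each way per comparison among members with a mean of at least 5 TPM, and the 5 highest and 5 lowest by mean TPM. Others named were chosen after their values were seen.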

Additional observations from a re-analysis of the deposited data

Results flagged for a closer look

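The prednisone effect on Mrps21 differed between infarcted and sham hearts by 0.47 on the log2 scale (SE 0.15, limma adjusted p = 0.0465 for the interaction). It was 0.50 in MI and 0.03 in sham. Each of the 3 MI prednisone mice was above every MI vehicle mouse. The call was lost without any 1 of 9 of the 12 libraries. It was also lost with no filter on low values (adjusted p = 0.0634), with no variance trend (0.0748), with the length correction (0.308) and at its most abundant transcript (0.676).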

How the results depend on the processing

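For MI against sham under vehicle, 5 members were called with the length correction, 12 with median centring of the genes with a length, 14 with median-ratio rescaling and 10 with mitochondrial, nuclear-copy and globin rows removed, against 0 as deposited. All of these were lower, beside 2.67%, 3.06%, 3.22% and 2.25% of all genes, and the length correction with the replicate block gave 0 (0.118% of all genes). The median change turned from 0.10 to -0.32 with the length correction, with or without the replicate block, and to -0.29, -0.35 and -0.14 in the other 3. The centring alternative was chosen after seeing the data. For MI against sham under prednisone the same 4 settings gave 3, 20, 19 and 15 called (1, 19, 18 and 10 of them higher, beside 4.91%, 10.7%, 10.8% and 5.21% of all genes). The shares of all genes called lower were 7.99%, 13.9%, 14.6% and 23.1%. The length correction with the replicate block gave 2 called, all lower, beside 5.01% of all genes. The median of 0.13 was -0.067 in both length corrections, 0.23 with centring, 0.21 with rescaling and 0.047 with rows removed. For prednisone in MI, 7 were called with the length correction and the replicate block, 51 with centring, 62 with rescaling, 34 with rows removed (33 higher) and 0 with only its own groups in the fit. The shares of all genes called higher were 5.85%, 13.6%, 14.3%, 4.58% and 0.236%, and those called lower 5.65%, 13.7%, 13.8%, 37.7% and 5.91%. The medians were 0.35 in both length corrections, 0.55 with centring, 0.58 with rescaling and 0.20 with rows removed. In sham the median turned to -0.010 with centring, -0.013 with rescaling and -0.0071 with rows removed. For the interaction, both length corrections gave 0 called, centring 29, rescaling 32, removed rows 14 and the most abundant transcript 2, all higher, beside 4.05%, 4.29%, 1.71% and 0.684% of all genes for the last 4. No filter and no variance trend gave 0 (0.279% and 0.410% of all genes higher, 7.93% and 20.7% lower). Its medians were 0.27 in both length corrections, 0.56, 0.58 and 0.21 with centring, rescaling and removal. The cause of these shifts was not tested.

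Summed TPM became 4729 in sham vehicle, 3551 in MI vehicle and 5586 in MI prednisone after rescaling. With rows removed the sums were 10045, 9990.1, 8700.1 and 10582 in sham vehicle, sham prednisone, MI vehicle and MI prednisone, and with the most abundant transcript 3379, 3565, 3438 and 4029. The large to small ratio with that transcript was 2.08, 2.09, 2.07 and 2.08. Mrps11 turned to -0.21 and Mrps23 to 0.19 with the most abundant transcript, and Mrps23 to 0.014 with rescaling.

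Leaving out 1 library gave 0 to 8 called for MI against sham under vehicle, 1 to 21 under prednisone, 9 to 24 for prednisone in MI, 0 to 0 in sham and 0 to 5 for the interaction. For MI against sham under vehicle, 0.889% to 41.2% of all genes were called higher and 0.0228% to 1.59% lower. Under prednisone the shares were 0.661% to 7.27% and 7.04% to 22.9%. For prednisone in MI they were 1.23% to 3.63% and 23.1% to 45.6%, and for the interaction 0.144% to 1.16% and 8.30% to 33.7%. The members' medians in the 5 comparisons ran from -0.0015 to 0.16, 0.07 to 0.18, 0.05 to 0.19, 0.02 to 0.12 and -0.035 to 0.14. The sums ran from 4269 to 4429 TPM in sham vehicle, 4373 to 4699.8 in sham prednisone, 4274 to 4596 in MI vehicle and 4881 to 5304 in MI prednisone, and the ratios from 1.83 to 1.89.

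Replicate numbers do not pair the mice. Deviations of same-numbered mice had a mean correlation of -0.37, -0.05, -0.25 and 0.0028 in the 4 pairwise comparisons. With the replicate block, 0 members were called for MI against sham under vehicle, beside 7.64% of all genes higher and 0.388% lower. Under prednisone 5 were called higher and 3 lower, beside 1.76% and 12.7% of all genes. For prednisone in MI 15 were called higher and 3 lower, beside 2.07% and 31.6%, and in sham 0. In the interaction the block ended the Mrps21 call (adjusted p = 0.0548), and Mrps23 was called instead, lower at -0.54 (adjusted p = 0.0365, limma). TPM keeps no depth, so the counting error of low members such as Mrpl23 could not be given.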
